A study of Komagataella phaffii GS115 with 9 samples.

Results

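The genes *TDH3*, *TEF1* and *ADH2* of *Pichia pastoris* (syn. *Komagataella phaffii*) were followed in the RNA-seq table of 9 libraries as gene-PP7435_CHR2-0858, gene-PP7435_CHR1-1535 and gene-PP7435_CHR2-0821. They are 3 of the 5557 features in the table and were chosen by these locus tags, as strongly transcribed genes outside the methanol pathway. The groups, each with 3 biological replicates, were the robust mutant induced at 37 °C (G14_37), the robust mutant induced at 28 °C (G14_28) and its parent induced at 28 °C (Parent_28), the WT of the study. The paper describes its fermentation under the *AOX1* promoter as run in glycerol medium (BMGY) and methanol medium (BMMY) at 28 °C. All cultures were sampled at 60 h. The robust mutant tolerates oxidative and thermal stress and was obtained from the parent by adaptive laboratory evolution. Both strains carry a lipase gene under the methanol-inducible *AOX1* promoter. No library of the parent at 37 °C was analysed here, so strain and temperature cannot be told apart between G14_37 and Parent_28.

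*P. pastoris* is a methylotrophic yeast, which oxidizes methanol in peroxisomes and carries the carbon through glyceraldehyde 3-phosphate into central metabolism. *TDH3* encodes glyceraldehyde-3-phosphate dehydrogenase, an enzyme of glycolysis and gluconeogenesis, and its promoter (P GAP) is the usual constitutive promoter for protein expression in this yeast. *TEF1* encodes translation elongation factor 1-alpha, which brings aminoacyl-tRNA to the ribosome, and its promoter is also used for constitutive expression. *ADH2* encodes an alcohol dehydrogenase, an enzyme that interconverts ethanol and acetaldehyde. In *Saccharomyces cerevisiae* the gene of that name is repressed by glucose. The question here was how the levels of these genes stood in the mutant against its parent on methanol, and in the mutant at the higher temperature.

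Values are FPKM, the reads of a gene divided by its length and by a library size, so levels of different genes can be compared. The table held values in whole steps, from which read numbers and gene lengths were worked out, with 13131111 to 15945465 reads per library. The recovered lengths were 1002 bases for *TDH3*, 1380 for *TEF1* and 1053 for *ADH2*, which are 334, 460 and 351 codons. The gene names could not be checked against an annotation, because the reference table of strain GS115 shares no locus tag with these data. For the same reason, the other genes of glycolysis, translation elongation and ethanol metabolism were not analysed here by name. Between 31125 and 111144 reads lay behind each value of the 3 genes, so the counting error was at most 0.567% of a value. One library stood apart. Between the reads of G14_37 replicate 1 and those of the other G14_37 replicates, chi-square divided by its degrees of freedom was 48.5 and 49.8, against 3.84 to 8.55 for every other pair of replicates. This library was also the highest of its group for all 3 genes. Values without it are given beside the results at 37 °C that rest on it.

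*TDH3* had the narrowest range of the genes in the deposited values. Its level was 2693.3, 2181.8 and 2350.2 FPKM in G14_37 (replicates 1 to 3), 2953.4, 3298.8 and 2840.4 FPKM in G14_28, and 2759.0, 2693.3 and 2601.6 FPKM in Parent_28. The G14_28 libraries were the highest and did not overlap those of either other group, whereas G14_37 and Parent_28 overlapped. A lack of overlap between 2 groups was common, at 71.3% to 75.8% of the features tested, depending on the comparison. The means were 2408.5 ± 260.7, 3030.9 ± 238.9 and 2684.6 ± 79.1 FPKM (SD, n = 3 each), in the same order. Without G14_37 replicate 1 the mean at 37 °C was 2266.0 ± 119.1 FPKM (SD, n = 2). The highest of the 9 values was 1.51 times the lowest.

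*TEF1* had its highest level in the parent. It was found at 3216.9, 2361.9 and 2543.7 FPKM in G14_37, at 3575.0, 3588.7 and 3131.7 FPKM in G14_28, and at 4487.7, 4775.2 and 4761.4 FPKM in Parent_28. Every mutant library lay below every parent library, and within the mutant the first library at 37 °C lay inside the range at 28 °C. The means were 2707.5 ± 450.4, 3431.8 ± 260.0 and 4674.8 ± 162.1 FPKM (SD, n = 3 each), in that order. Without G14_37 replicate 1 the mean at 37 °C was 2452.8 ± 128.6 FPKM (SD, n = 2).

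*ADH2* differed most between the groups. Its values were 3788.1, 2331.1 and 2269.6 FPKM in G14_37, 5116.1, 5170.0 and 4605.4 FPKM in G14_28, and 8598.1, 8592.5 and 8446.3 FPKM in Parent_28. No group overlapped another, and the order was Parent_28 above G14_28 above G14_37. In each single comparison 71.3% to 75.8% of the features also had no overlap. The share without overlap in all 3 comparisons was not worked out. The means were 2796.3 ± 859.5, 4963.8 ± 311.6 and 8545.6 ± 86.1 FPKM (SD, n = 3 each), in the order G14_37, G14_28 and Parent_28. The spread of *ADH2* was 30.7% of the mean in G14_37 and 1.01% in Parent_28, and the wide spread at 37 °C rested on replicate 1. Without that library the mean in G14_37 was 2300.4 ± 43.5 FPKM (SD, n = 2), a spread of 1.89%. Over the 9 libraries the highest value was 3.79 times the lowest.

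**Figure D1:**
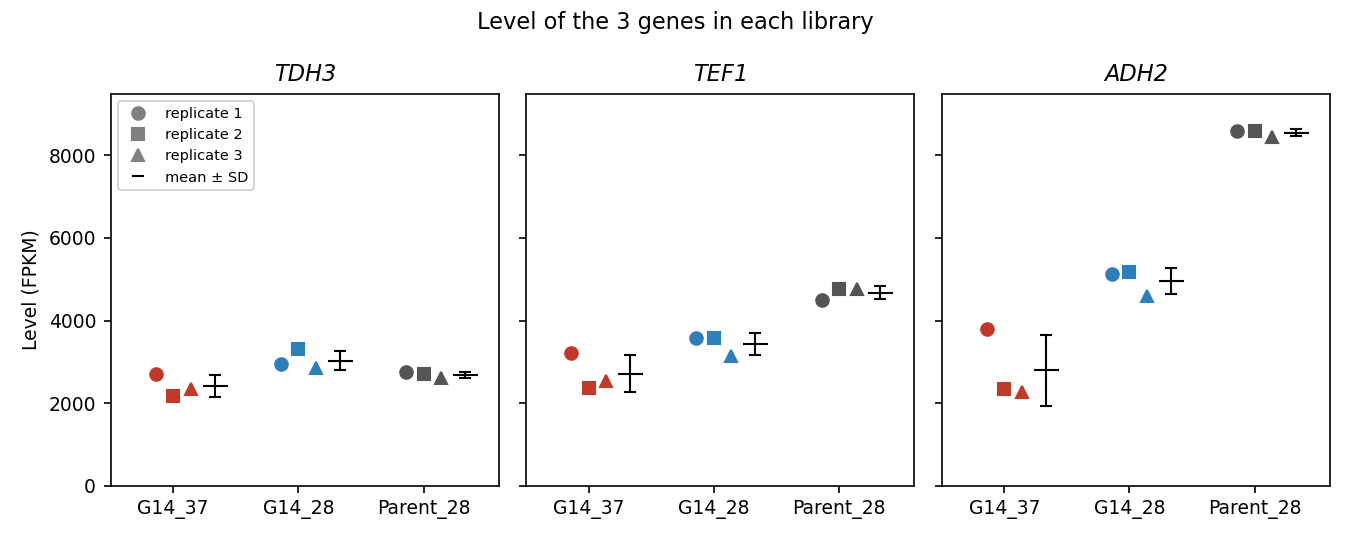
Level in FPKM (linear axis from 0) of *TDH3*, *TEF1* and *ADH2* in each library, by group, with a marker for each replicate number and the mean ± SD (n = 3) beside the points. *ADH2* lies near 8546 FPKM in Parent_28 and near 2796 FPKM in G14_37, while *TDH3* stays between 2181.8 and 3298.8 FPKM.

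The first comparison was that of the robust mutant with its parent at 28 °C. *ADH2* fell to 0.581 times its parent level, with a log2 fold change of -0.79 (95% interval -0.92 to -0.66, adjusted p = 6.14e-06 from limma). *TEF1* fell to 0.734 times the parent level, a log2 fold change of -0.45 (-0.59 to -0.30, adjusted p = 0.000271 from limma). *TDH3* rose slightly, to 1.13 times the parent level, with a log2 fold change of 0.17 (0.03 to 0.31, adjusted p = 0.0335 from limma). Fold changes are on the scale of log2(FPKM + 1), and adjusted p-values are over the 5448 features tested. In such bulk samples, less RNA of a gene per cell and fewer cells expressing it cannot be told apart. Whether reads were shared with near-identical gene copies was not tested.

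By an adjusted p under 0.05, 66.3% of the features tested were called between the strains, 29.6% higher and 36.7% lower, so a call alone set none of the genes apart. Their sizes differed more: 92.2% of the features had a smaller absolute log2 fold change than *ADH2*, 74.2% a smaller one than *TEF1*, and 36.3% a smaller one than *TDH3*. None of the 3 genes passed the further criterion of an absolute log2 fold change above 1, which 3.58% of the features passed. The groups did not overlap for any of the genes, as for 71.3% of the features, and the two-sided exact permutation test gave p = 0.1 for each, the smallest that 3 libraries against 3 allow. The call of *TDH3* was lost without G14_28 replicate 2 (log2 fold change 0.11, adjusted p = 0.113 from limma) and without Parent_28 replicate 1, 2 or 3 (adjusted p = 0.0513, 0.0817 and 0.107 from limma). It was also lost with all 3 groups in one fit (adjusted p = 0.127 from limma). The calls of *TEF1* and *ADH2* between the strains held under all 15 alternatives run for each.

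The second comparison was that of the robust mutant at 37 °C with itself at 28 °C. *ADH2* fell again, to 0.563 times its level at 28 °C, with a log2 fold change of -0.87 (95% interval -1.32 to -0.42, adjusted p = 0.00404 from limma). *TEF1* and *TDH3* had means of 0.789 and 0.795 times those at 28 °C in the deposited values, with log2 fold changes of -0.35 (-0.66 to -0.04, adjusted p = 0.0446 from limma) and -0.33 (-0.59 to -0.08, adjusted p = 0.027 from limma). For these 2 genes the direction rested on the scaling between libraries, and both lay slightly above 0, with no call, when all libraries were given the same sum. Without G14_37 replicate 1 the log2 fold changes were -1.11 for *ADH2*, -0.48 for *TEF1* and -0.42 for *TDH3*, all farther from 0 than with it. The call of *TDH3* was lost without G14_37 replicate 2 or 3 (-0.27 and -0.32) or G14_28 replicate 1 or 2 (-0.35 and -0.27), with adjusted p of 0.0676 to 0.12 from limma. The call of *TEF1* was lost without any single library other than G14_37 replicate 1 (-0.42 to -0.26, adjusted p of 0.0552 to 0.14 from limma). The exact two-sided permutation p was 0.1 for *ADH2* and *TDH3* and 0.2 for *TEF1*, whose groups overlapped. Between the temperatures 69.4% of the 5459 features tested were called, 33.2% higher and 36.2% lower, and without G14_37 replicate 1 the share was 72.1%. The groups did not overlap for 73.5% of them, and 11.0% were called with an absolute log2 fold change above 1, none of the 3 genes among them. Of the features, 85.1% had a smaller absolute log2 fold change than *ADH2*, 50.1% a smaller one than *TEF1*, and 48.0% a smaller one than *TDH3*.

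The library sizes used in the deposited values were 1.15 to 1.23 times the recovered reads in G14_37, against 0.874 to 0.925 times in the groups at 28 °C. The summed FPKM was accordingly 707354 to 790873 in G14_37, against 958893 to 1003485 in G14_28 and 1052930 to 1066305 in Parent_28. When every library was brought to the same sum, the median log2 fold change of all features between the temperatures moved to 0.38, against -0.02 with the deposited values. On that scaling *TDH3* and *TEF1* had log2 fold changes of 0.08 (95% interval -0.08 to 0.25) and 0.06 (-0.13 to 0.26) at 37 °C against 28 °C, with adjusted p = 0.324 and 0.507 from limma. *ADH2* was still lower, at -0.45 (-0.77 to -0.14, adjusted p = 0.0137 from limma). With equal sums and without G14_37 replicate 1, *TDH3* was at 0.05 and *TEF1* at -0.02 (adjusted p = 0.524 and 0.777 from limma), and *ADH2* at -0.64 (adjusted p = 5.22e-06 from limma). The difference from the median of all features was -0.31 for *TDH3*, -0.33 for *TEF1* and -0.84 for *ADH2* with the deposited values. It was -0.30, -0.32 and -0.83 with equal sums. Equal sums shift all features of a library by the same amount, so this difference could hardly change by construction. Between the strains at 28 °C, equal sums moved the median by less, to 0.06 against -0.04, and all 3 genes kept their direction, with *TDH3* at 0.27, *TEF1* at -0.35 and *ADH2* at -0.68.

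**Figure D2:**
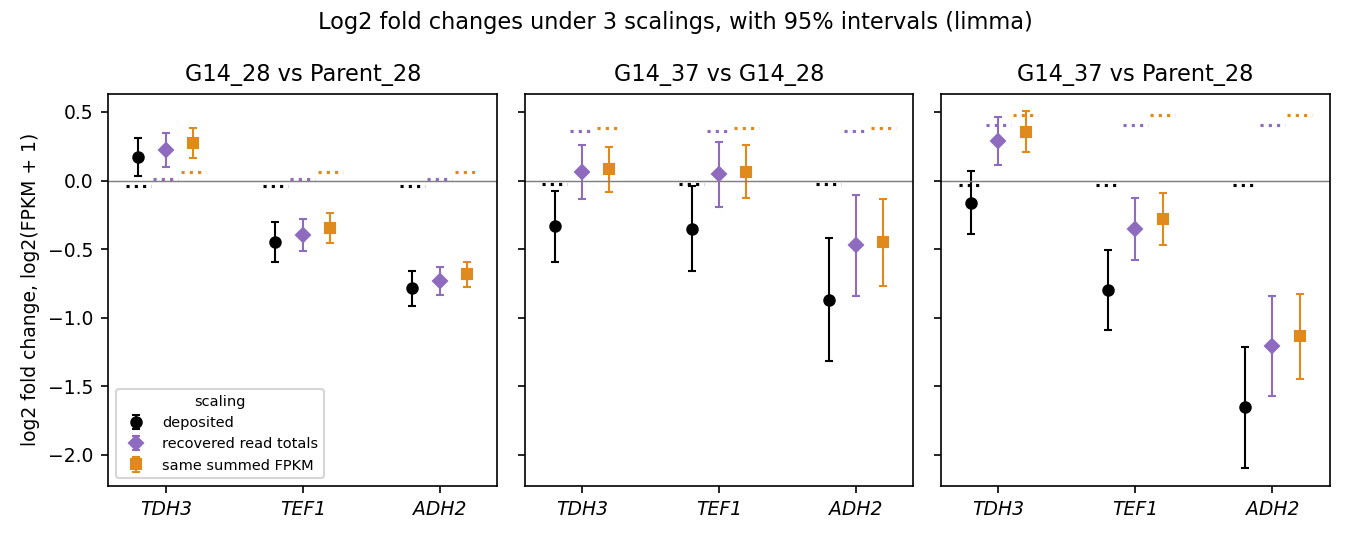
Log2 fold change of *TDH3*, *TEF1* and *ADH2* in the 3 comparisons, on the log2(FPKM + 1) scale, under the deposited scaling, scaling to recovered read totals and scaling to the same summed FPKM. Bars are 95% intervals from limma and dotted lines the median of all tested features under each scaling. *TDH3* and *TEF1* lie below 0 with the deposited scaling and slightly above 0 with the other scalings at 37 °C against 28 °C, while *ADH2* stays below 0.

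Values in FPKM of G14_37 were then set against those of Parent_28. Between these groups, which differ in both strain and temperature and share their libraries with the comparisons above, *ADH2* had 0.327 times and *TEF1* 0.579 times the parent level. The log2 fold changes were -1.65 (95% interval -2.09 to -1.21, adjusted p = 9.1e-05 from limma) and -0.80 (-1.09 to -0.51, adjusted p = 0.000575 from limma). Both stayed called with equal sums, at -1.14 and -0.28. *ADH2* passed the criterion of an absolute log2 fold change above 1, which 12.3% of the 5451 features tested passed, and 72.3% were called by adjusted p alone, 33.1% higher and 39.1% lower. The groups did not overlap for *ADH2* and *TEF1*, as for 75.8% of the features. *TDH3* had a log2 fold change of -0.16 (-0.39 to 0.07, adjusted p = 0.174 from limma), and 0.36 (0.21 to 0.50, adjusted p = 0.000562 from limma) with equal sums, so no direction can be given for it. Without G14_37 replicate 1 the deposited values gave -0.25 for *TDH3* (adjusted p = 0.00318 from limma), -0.93 for *TEF1* and -1.89 for *ADH2*, and equal sums gave 0.32, -0.37 and -1.33 for the genes in that order, all called.

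Ratios between the genes within a library do not depend on the scaling. *ADH2* stood at 1.41, 1.07 and 0.97 times the level of *TDH3* in G14_37, at 1.73, 1.57 and 1.62 times in G14_28, and at 3.12, 3.19 and 3.25 times in Parent_28. The mean log2 ratio of *ADH2* to *TDH3* differed by -0.96 between G14_28 and Parent_28 (pooled SD 0.056) and by -0.53 between G14_37 and G14_28 (pooled SD 0.21). The 3 groups did not overlap.

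*ADH2* to *TEF1* gave a smaller step between the strains. The ratio was 1.18, 0.99 and 0.89 in G14_37, 1.43, 1.44 and 1.47 in G14_28, and 1.92, 1.80 and 1.77 in Parent_28. On the log2 scale the means differed by -0.34 between G14_28 and Parent_28 and by -0.52 between G14_37 and G14_28, again without overlap. Without G14_37 replicate 1 the second difference was -0.63, and for *ADH2* to *TDH3* it was -0.69.

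*TDH3* to *TEF1* differed between the strains, with overlap between the temperatures. This ratio was 0.84, 0.92 and 0.92 in G14_37, 0.83, 0.92 and 0.91 in G14_28, and 0.61, 0.56 and 0.55 in Parent_28. The mean log2 ratio was 0.62 higher in G14_28 than in Parent_28 (pooled SD 0.086), and the difference between G14_37 and G14_28 was 0.02 (pooled SD 0.083). Of the 9 differences of ratios tested, 8 had groups without overlap and an exact two-sided permutation p of 0.1, the smallest possible, which is 0.1125 after Benjamini-Hochberg adjustment over the 9 tests. The remaining one, *TDH3* to *TEF1* between the temperatures, had an exact permutation p of 0.5. Among single features, 71.3% to 75.8% had groups without overlap, depending on the comparison, and the share among pairs of features was not worked out. The 9 differences are not separate results. On the log2 scale each pair follows from the other pairs, and each comparison from the other comparisons.

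**Figure D3:**
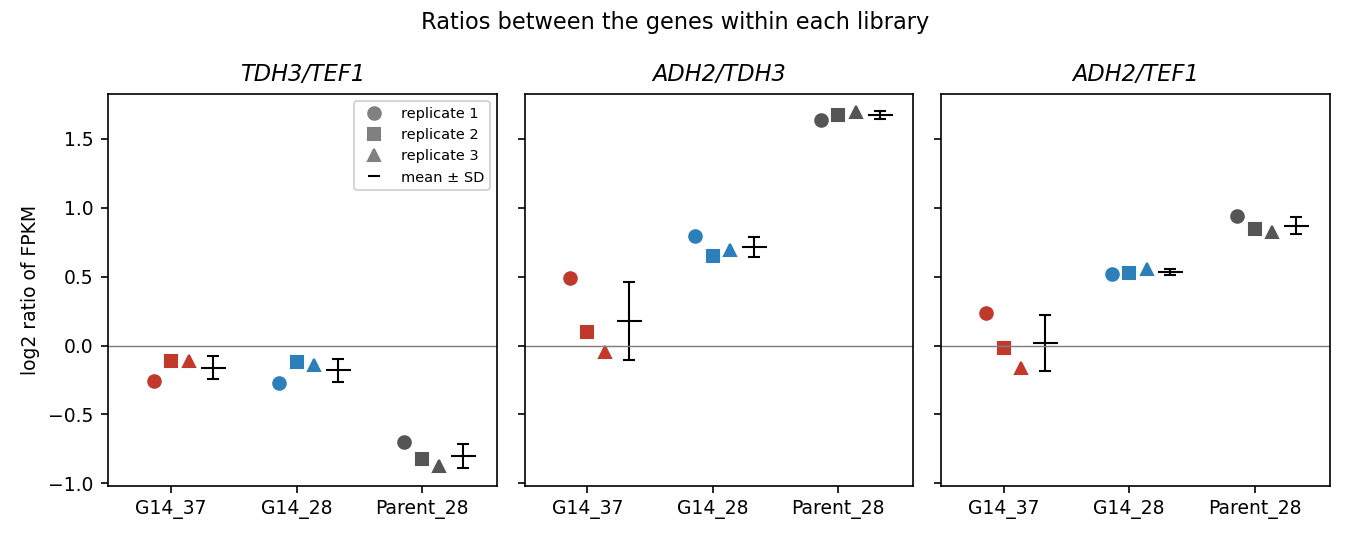
Log2 ratio of FPKM between pairs of the genes within each library, by group, with a marker for each replicate number and the mean ± SD (n = 3) beside the points. *ADH2* to *TDH3* has a mean of 0.18 in G14_37 and 1.67 in Parent_28, and *TDH3* to *TEF1* overlaps between G14_37 and G14_28 (means -0.16 and -0.18).

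The order of the genes by level followed from these ratios. In all Parent_28 and G14_28 libraries *ADH2* was above *TEF1*, and *TEF1* was above *TDH3*. In G14_37 the order held in replicate 1, while *TEF1* was highest in replicates 2 and 3, and *ADH2* was the lowest of the genes in replicate 3. The means of the genes in G14_37, 2796.3 FPKM for *ADH2*, 2707.5 for *TEF1* and 2408.5 for *TDH3*, differed by less than the SD of *ADH2*, which rested on replicate 1. Without that library *TEF1* was the highest, at 2452.8 FPKM, against 2300.4 for *ADH2* and 2266.0 for *TDH3* (n = 2 each). Within replicates 2 and 3, *ADH2* was at 0.99 and 0.89 times the level of *TEF1*, so the levels were close in replicate 2.

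The rank among all features, which is also free of the scaling, gave another view of the same levels. *ADH2* ranked 14th, 19th and 22nd in G14_37 (replicates 1 to 3), 16th to 18th in G14_28, and 9th to 10th in Parent_28. Thus only replicate 1 of G14_37 ranked better than G14_28, and replicates 2 and 3 ranked below it. *TEF1* ranked 17th to 18th in G14_37, 24th to 26th in G14_28 and 17th to 21st in Parent_28. *TDH3* ranked 19th to 22nd in G14_37, 27th to 31st in G14_28 and 34th to 38th in Parent_28, so that its place among the features was best where its FPKM was lowest on average.

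Many other strongly transcribed features had lower values at 37 °C. Among the 50 features with the highest mean over the 9 libraries, which include all 3 genes, the median log2 fold change between G14_37 and G14_28 was -1.08 and 40 were called lower, against a median of -0.02 over all features. With equal sums the median of the 50 was -0.67, and without G14_37 replicate 1 the deposited values gave -1.16, with 43 called lower. As 6 of the 9 libraries in that mean were from 28 °C, the choice of the 50 favours features that were high at 28 °C. *TDH3* had a higher log2 fold change than 39 of the other abundant features, *TEF1* than 38, and *ADH2* than 30 (39, 38 and 27 without G14_37 replicate 1).

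Between the strains at 28 °C the abundant features were nearer to the rest, with a median of -0.11 against -0.04. *ADH2* was near the bottom of them, with only 3 abundant features lower, whereas 12 were lower than *TEF1* and 37 lower than *TDH3*. Over the 9 libraries, with the deposited scaling, the SD of log2(FPKM + 1) was 0.17 for *TDH3*, 0.37 for *TEF1* and 0.75 for *ADH2*, and the median of the 50 was 0.64. On this scaling 2 of the abundant features had a smaller SD than *TDH3*, while 10 had a smaller SD than *TEF1* and 28 a smaller one than *ADH2*. The size of the gap between *TDH3* and *TEF1* depended on the scaling. Equal sums gave SDs of 0.17 for *TDH3*, 0.18 for *TEF1* and 0.52 for *ADH2*, with 3, 5 and 27 abundant features below them. Scaling to recovered read totals gave 0.15, 0.22 and 0.56 in that order, with 3, 7 and 27 below them. Without G14_37 replicate 1 the SDs were 0.19, 0.39 and 0.79 with the deposited scaling and 0.16, 0.19 and 0.56 with equal sums. The median over all tested features was 0.26 with the deposited scaling and 0.34 with equal sums, and 27.9% and 14.5% of them had a smaller SD than *TDH3*. For *TEF1* these shares were 70.7% and 16.4%, and for *ADH2* they were 93.6% and 80.5%, in the same order.

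**Figure D4:**
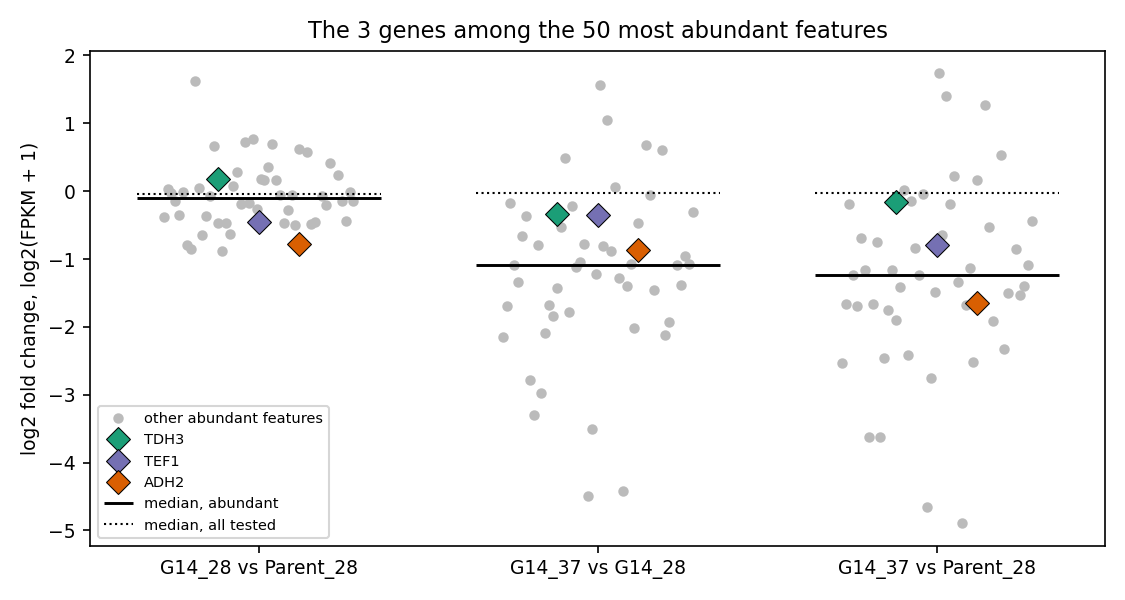
Log2 fold change, on the log2(FPKM + 1) scale, of the 50 features with the highest mean FPKM over the 9 libraries in the 3 comparisons, with *TDH3*, *TEF1* and *ADH2* as coloured diamonds. Solid lines are the median of the 50 (-0.11, -1.08 and -1.24 from left to right) and dotted lines that of all tested features (-0.04, -0.02 and -0.03).

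*TDH3* and *ADH2* both lie on chromosome 2, at tag numbers 858 and 821, and *TEF1* is on chromosome 1. The order of locus tags was not checked against coordinates. The 10 tested tags on either side of *ADH2* had a median log2 fold change of -0.02 between G14_28 and Parent_28, and all 20 lay above *ADH2*. The same count was found between the temperatures, with a median of -0.15 for the neighbours. Around *TEF1*, 17 of the 20 neighbours were above it between the strains, with a median of -0.02. Around *TDH3*, 3 of the 20 were above it between the strains and 18 between the temperatures, with medians of -0.06 and 0.28. The counts between the temperatures were again 20 for *ADH2* and 18 for *TDH3* without G14_37 replicate 1.

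The features most like each gene over the 9 libraries were sought among 1916 others with a mean of at least 100 FPKM, by the Pearson correlation of log2(FPKM + 1). As the 9 libraries fall into 3 groups and share one scaling, the correlations are descriptions only. Locus tag CHR2-0061 was most like *ADH2* (r = 0.997), with 290.9 ± 75.4, 459.0 ± 24.6 and 740.9 ± 30.4 FPKM in G14_37, G14_28 and Parent_28 (SD, n = 3 each). Locus tag CHR3-0588 was most like *TEF1* (r = 0.997), with 604.7 ± 129.2, 852.7 ± 90.6 and 1225.4 ± 37.9 FPKM in the same groups (SD, n = 3 each). Such profiles were common, as 208 features had an r above 0.95 with *ADH2* and 138 with *TEF1*. For *TDH3* no feature reached 0.95, and the closest was CHR3-0007 (r = 0.94), with 490.5 ± 44.5 FPKM in G14_37, 685.1 ± 9.4 in G14_28 and 593.0 ± 22.4 in Parent_28 (SD, n = 3 each). The likeness itself did not rest on G14_37 replicate 1, but which feature came first did. Over the 8 libraries without it, CHR2-0061 had r = 0.997 with *ADH2*, CHR3-0588 r = 0.998 with *TEF1* and CHR3-0007 r = 0.957 with *TDH3*. Another feature was then closest to each gene (r = 0.999, 0.998 and 0.984 in that order). Over these 8 libraries, 368, 292 and 7 features had an r above 0.95 with *ADH2*, *TEF1* and *TDH3*.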

How the data were processed

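Libraries were made, sequenced and aligned for the authors by a sequencing company, and the submitters' processing notes name CASAVA, HISAT2 (version 2.0.5) and featureCounts (version 1.5.0-p3). The authors deposited one table with a normalized value per feature and library. Its unit, taken from the values, is FPKM, and the deposited library sizes lie within 1.85% of median-of-ratios scaling. The annotation is not given in the sources used here. Whole reads were recovered for 5516 of the 5516 features with any reads. A feature counted as recovered only if all its values lay within 0.02 of a whole number. All 49103 values above 0 therefore did so by that rule. Of the lengths, 97.9% are multiples of 3, so they are coding lengths.

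Groups were compared with limma (version 3.58.1, R 4.3.3; lmFit and eBayes with trend) of log2(FPKM + 1), each fit holding the libraries of 2 groups, for features with a mean of at least 1 FPKM in either group, and with Benjamini-Hochberg adjustment. Features with an adjusted p under 0.05 were called. The recovery was tested on data simulated for all libraries. The fits were tested on data simulated from G14_28 and Parent_28 only, so that test does not cover the comparisons with G14_37. Neighbours are the 10 tested locus tags on either side, and the features named beside the genes are the one most correlated with each. Alternatives were a pseudocount of 0.1, no filter, equal sums, centring on the median, no trend, the replicate number as a block, a fit of all 3 groups, limma-voom on the recovered reads and each replicate left out. Scaling to recovered read totals, equal sums without G14_37 replicate 1 and the other values without that library were added after seeing the data. The genes and lists were chosen with earlier results of these data known. Permutation tests used scipy (version 1.17.1) under Python 3.11.15. Planned counts over pathway lists were not run, since no table pairs these locus tags with names.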

Additional observations from a re-analysis of the deposited data

How the results depend on the processing

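The differences of *ADH2* in all 3 comparisons, and those of *TEF1* between G14_28 and Parent_28 and between G14_37 and Parent_28, kept their direction and call under all alternatives run, 15 for each between the strains and 16 for each with G14_37. For *TDH3* between G14_28 and Parent_28 the call was lost under 5 of the 15 alternatives. These were all 3 groups in one fit (log2 fold change 0.172) and 4 of the 6 fits with a replicate left out. Between G14_37 and G14_28, equal sums gave 0.082 for *TDH3* and 0.064 for *TEF1*, and scaling to recovered read totals, chosen after seeing the data, gave 0.062 and 0.044. The *TEF1* call was also lost without the filter (-0.352) and with median centring (-0.334). Between G14_37 and Parent_28 the same 2 scalings gave 0.356 and 0.286 for *TDH3*. Equal sums without G14_37 replicate 1, also chosen after seeing the data, gave 0.046 for *TDH3* and -0.019 for *TEF1* between the temperatures, and 0.32 for *TDH3* between G14_37 and Parent_28. By construction these scalings shift all features of a library by one amount, and the cause of the unequal sums was not tested. With equal sums, 59.0% of the called features were higher between the strains, against 44.7% with the deposited values, 80.4% against 47.8% between the temperatures, and 81.6% against 45.8% between G14_37 and Parent_28.

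With each replicate left out in turn, log2 fold changes between G14_28 and Parent_28 ranged from 0.11 to 0.218 for *TDH3*, from -0.482 to -0.384 for *TEF1* and from -0.816 to -0.732 for *ADH2*. Between G14_37 and G14_28 they ranged from -0.417 to -0.266, from -0.483 to -0.26 and from -1.107 to -0.738 for the genes in that order. The *TDH3* call was lost in 4 of these 6 fits (without G14_37 replicate 2 or 3 or G14_28 replicate 1 or 2), and that of *TEF1* in 5 of 6 (all but that without G14_37 replicate 1). Between G14_37 and Parent_28 they ranged from -0.245 to -0.093, from -0.931 to -0.708 and from -1.893 to -1.524, and *TDH3* passed the threshold only without G14_37 replicate 1 (-0.245). No difference of ratios moved by more than its pooled SD.

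The labels give every group the numbers 1 to 3, but deviations of same-numbered libraries had correlations from -0.138 to 0.249 and not every library correlated best with its own number, so the numbers were not taken as pairs. With the replicate number as a block, the log2 fold change of *TDH3* between G14_37 and G14_28 stayed at -0.334 and its call was lost (adjusted p = 0.0507 from limma), and no other call of the 3 genes changed. The numbers of called features were 3569, 3845 and 3924 with the block, against 3612, 3787 and 3939 without it, in the order of the comparisons above. Each value of the 3 genes rests on at least 31125 reads.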
